A study of Mus musculus with 6 samples.

Results

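The AIM2-like p200 genes are a family of interferon-inducible genes that lie side by side on mouse chromosome 1. Described here are 8 of them, Aim2, Ifi203, Ifi204, Ifi207, Ifi209, Ifi211, Ifi213 and Mndal, chosen by their gene symbols out of 53153 symbols in a table of RNA-seq read counts. All 8 passed the filter on low counts, as did 16621 genes in all. The table holds 3 libraries from Kit V558del/+ mice given imatinib and 3 libraries from Kit V558del/+ mice given vehicle, all on the C57BL/6J strain, aged 8 to 10 weeks and treated for 1 week. Every animal carries the activating Kit deletion in one allele and develops an intestinal gastrointestinal stromal tumor (GIST). Imatinib, an inhibitor of the KIT tyrosine kinase, was given in the drinking water. The study sorted CD45+ CD3+ TCRγδ+ NK1.1- cells from the tumors, that is, γδ T cells, and asked how early imatinib treatment changes them. Whether a library comes from 1 mouse or from pooled mice is not in the labels, so each p-value reflects the spread between libraries only.

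Many p200 proteins have a pyrin domain, which binds other pyrin domains, and 1 or more HIN-200 domains, which bind double-stranded DNA. Not every family member has both kinds of domain. Protein sequences were not examined, so whether the product of a given gene, Ifi213 included, can bind DNA was not tested. Aim2 encodes the best known p200 protein. It binds DNA in the cytosol and assembles an inflammasome, in which the adaptor Pycard (ASC) recruits caspase-1. Ifi204 encodes p204, which has been compared with human IFI16, a nuclear and cytosolic DNA sensor upstream of STING. Several family members act in the nucleus on transcription and cell growth. They are best known from myeloid cells and are also made in lymphocytes, where interferons raise them.

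In these libraries the p200 genes were lower on imatinib, except that Ifi203 and Ifi209 had the opposite sign when counts were scaled to the macrophage C1q genes. Of the 8 genes, 6 fell at an adjusted p under 0.05 (quasi-likelihood test of edgeR, p-values adjusted over all genes after Benjamini and Hochberg), against 8.42% of all genes tested, and 0 rose, also at an unadjusted p under 0.05 or by DESeq2 or limma voom, against 6.15%. In all 8 genes the highest imatinib library was under the lowest vehicle library, which held for 20.2% of all genes tested. The median log2 fold change, imatinib over vehicle, was -1.09 over the 8 genes and 0.01 over all genes. Log2 fold changes ran between -2.30 for Ifi213 and -0.48 for Ifi203. DESeq2 and limma voom called all 8 lower, where they called 12.2% and 9.99% of all genes lower.

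The libraries held transcripts that mark other cells besides γδ T cells, and some of these differed between the groups. For the marker counts that follow, edgeR called 6.15% of all genes tested higher and 8.42% lower. Trdc, which encodes the constant part of the T cell receptor δ chain, was at 850 to 1237 CPM (counts scaled by TMM to a common library total) on imatinib and 373 to 673 CPM on vehicle. Foxp3 reached no more than 0.775 CPM in any library, although the series text describes regulatory T cells of tumor and lymph node. C1qa, a complement gene of tissue macrophages, was at 1092, 2435 and 1851 CPM on imatinib, against 3128, 2461 and 3073 CPM on vehicle. Over 15 macrophage and monocyte markers, the summed level was 7003 to 12615 CPM on imatinib and 11258 to 14646 CPM on vehicle, with Mrc1 (opposite in sign under Cd3 scaling, -0.05), Lyz2 and Ccr2 called higher by edgeR, 0 called lower (2 at an unadjusted p under 0.05 and 4 by DESeq2) and none of the 15 at 0. Ccr2, which γδ T cells can also express, was at 427, 292 and 379 CPM on imatinib and 154, 211 and 168 CPM on vehicle. Without imatinib 3, vehicle 1 or vehicle 2 only 1 macrophage marker was called higher, and without imatinib 2 there were 2 higher and 3 lower. Over 15 γδ T cell markers the summed level was 3385 to 5020 CPM on imatinib and 1624 to 3091 CPM on vehicle. Trdc, Trdv4, Cd3d, Sox13 and Maf were called higher (Maf opposite in sign under Cd3 scaling, -0.11). The count of γδ T cell markers called was 1 without imatinib 1, imatinib 3 or vehicle 1, 2 without vehicle 3 and 9 without imatinib 2. B and plasma cell markers summed to 41619 to 61631 CPM on imatinib and 8544 to 65228 CPM on vehicle, and Kit, which marks the tumor cells, was at 61.0 to 196 CPM on imatinib and 19.6 to 21.1 CPM on vehicle. Kit, Etv1 and Hand1 were the 3 called higher among 8 markers of GIST and interstitial cells of Cajal, a count that was 1 without imatinib 3, vehicle 1 or vehicle 2, and 6 without imatinib 2. Kit itself was called in 2 of the 6 fits that left out a library.

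Of the other marker lists, edgeR called 3 of 6 αβ T cell genes higher (Trbc1, Trbc2 and Trac, Trac with the opposite sign under Cd3 scaling, -0.13), and 0 without imatinib 3, vehicle 1 or vehicle 3. The other αβ T cell genes did not pass and had negative log2 fold changes, -1.31 for Cd8a, -1.24 for Cd8b1 and -0.27 for Cd4. Of 8 fibroblast genes 1 was called higher (Thy1), but 7 were higher at an unadjusted p under 0.05 and 7 by DESeq2. Their median log2 fold change was 1.43, and they summed to 950 to 1570 CPM on imatinib and 487 to 691 CPM on vehicle. Mouse T cells also express Thy1, which alone was at 582 to 860 CPM on imatinib and 308 to 428 CPM on vehicle. The count called by edgeR was 0 without imatinib 3, 2 without imatinib 2 and 3 without vehicle 1. Of 10 dendritic cell genes 1 was higher (Cd209a) and 1 lower (Siglech), the lower count being 0 without vehicle 1, vehicle 2 or vehicle 3, 2 without imatinib 1 and 3 without imatinib 2. Of 6 endothelial genes 1 was lower (Kdr, with the opposite sign under C1q scaling, 0.08), a call kept only without vehicle 2. Over all genes tested the shares called were 6.15% higher and 8.42% lower. Marker genes other than the first of each list were named after their values were seen. The same test called 0 of 6 neutrophil (1 without imatinib 2), 0 of 12 B and plasma cell, 0 of 6 NK cell and 0 of 6 epithelial genes, of which 4, 1, 1 and 1 had an unadjusted p under 0.05 and DESeq2 called 5, 1, 1 and 1. Neutrophil genes had a median log2 fold change of 2.78 and summed to 116 to 368 CPM on imatinib and 90.2 to 132 CPM on vehicle. S100a8, an abundant neutrophil gene, was at 13.9, 64.0 and 7.97 CPM on imatinib, against 2.29, 5.22 and 2.45 CPM on vehicle, without overlap (log2 fold change 3.11, edgeR adjusted p = 0.111). The median log2 fold change was 0.63 for B and plasma cell, -0.13 for NK cell and 0.52 for epithelial genes. How far any of these cells carry the p200 transcripts was not tested. In bulk samples, fewer cells of a type and less RNA per cell cannot be told apart. Named-gene counts per library were between 21333897 and 25214210.

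The family occupies 680.9 kb of chromosome 1, between 173350879 and 174031810 (GRCm38, GENCODE M21). Aim2 stands at one end, at 173350879 to 173466040 on the plus strand. Ifi213 follows at 173566283 to 173599274 on the minus strand, Ifi209 at 173630917 to 173647928 on the plus strand, and Ifi207 at 173723427 to 173741747 on the minus strand. Ifi204 (173747293 to 173766943), Ifi211 (173896345 to 173913046) and Ifi203 (173920407 to 173942672) are also on the minus strand. The annotated span of Mndal, 173849126 to 173942491, covers that of Ifi211 and most of Ifi203, but its exons share only 37 bases with exons of Ifi203. All 8 are protein-coding genes.

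Most promoters of the family carry the same short stretch close to the start of transcription. RefSeq promoter windows (GRCm38.p6, 250 bases before to 50 bases after the annotated start) matched 7 of the 8 genes, and Ifi204 had none. The core of the interferon-stimulated response element was searched on both strands as GAAANNGAA, and the γ-interferon activated site as TTCNNNGAA; the 3 last letters of both patterns are the same, so matches can overlap. The response element core was present in the windows of Ifi203, Ifi207, Ifi211, Ifi213 and Mndal, 5 of 7 genes, and in 8.56% of 32851 promoter windows of the table. Ifi203 and Mndal have 2 windows each, so the count per gene and the share per window are not alike. The activated site was present in none of the 7 and in 8.30% of all promoters. A match is a stretch of letters and not a proven binding site. Whether the core bears on the difference between the groups was not tested. The 40 bases around the match on the coding strand are shown, with the 9 matched bases in capitals.
Ifi213: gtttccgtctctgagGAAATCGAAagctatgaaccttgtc
Ifi207: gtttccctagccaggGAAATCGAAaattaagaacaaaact
Ifi211: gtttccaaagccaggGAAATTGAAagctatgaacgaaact
Mndal: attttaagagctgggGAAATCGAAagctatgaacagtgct
Ifi203: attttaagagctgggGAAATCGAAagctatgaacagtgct

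The Ifi213 stretch lies at chr1:173599321-173599360 and its core begins 73 bases before the start. Those of Ifi207 (chr1:173741826-173741865), Ifi211 (chr1:173913059-173913098), Mndal (chr1:173880199-173880238) and Ifi203 (chr1:173942503-173942542) have their cores 41, 37, 36 and 35 bases before the start, all on the minus strand. The Mndal and Ifi203 stretches are identical over the 40 bases, as are those of Ifi213 and of Ifi208, a family gene outside the 8. Mndal has a second RefSeq window, with another match on the opposite strand. Aim2 and Ifi209 had no match in their windows. For Ifi209 the stretch most like a family window, chosen after its letters were seen, shared 36 of 40 bases with that of the family gene Ifi214 and is set beside it, with the 9 bases at the place of the core in capitals.
Ifi209: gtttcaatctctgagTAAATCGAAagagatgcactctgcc
Ifi214: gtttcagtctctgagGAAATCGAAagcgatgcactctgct

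The Ifi209 stretch is at chr1:173630765-173630804 on the plus strand and that of Ifi214 at chr1:173536012-173536051 on the minus strand. Within the core they differ by G1T, counted from 1 at the 5′ end of the core, with the Ifi214 base first. No comparable stretch was found in the Aim2 window, where the best shared 21 of 40 bases.

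Ifi213 had the largest difference of the 8 genes. Its level was 28.7, 43.0 and 45.0 CPM in imatinib 1, 2 and 3, against 162, 208 and 204 CPM in vehicle 1, 2 and 3, a mean of 38.9 ± 8.89 CPM on imatinib and 191 ± 25.8 CPM on vehicle (SD, n = 3 each). The highest imatinib library was far under the lowest vehicle library, and the mean on imatinib was 20.4% of that on vehicle (log2 fold change -2.30, standard error 0.19, edgeR adjusted p = 0.00231). It was called lower in each of 16 alternative fits, with adjusted p of up to 0.0198, and was the only one of the 8 genes of which this was true.

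Aim2, the DNA receptor of the inflammasome, had 33.1, 38.3 and 37.8 CPM on imatinib, against 57.4, 73.7 and 76.9 CPM on vehicle. Both groups were narrow and did not overlap, and the mean on imatinib was 52.5% of that on vehicle (log2 fold change -0.93, standard error 0.14, edgeR adjusted p = 0.00734). Leaving out any single library kept the call, with adjusted p of at most 0.0344.

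Ifi207 had 67.7, 141 and 101 CPM on imatinib, against 259, 227 and 287 CPM on vehicle. Imatinib 2 was the highest treated library and still under every vehicle library (log2 fold change -1.32, standard error 0.25, edgeR adjusted p = 0.0182). Mndal, named after the human myeloid nuclear differentiation antigen, had 73.0, 130 and 96.1 CPM on imatinib, against 178, 216 and 195 CPM on vehicle, in the same order among the treated libraries (log2 fold change -0.98, standard error 0.20, edgeR adjusted p = 0.0194).

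Ifi204 and Ifi211 differed by more on the log2 scale than Aim2, but varied more between libraries and did not pass the test. Ifi204 had 70.3, 189 and 116 CPM on imatinib, against 291, 275 and 396 CPM on vehicle (log2 fold change -1.36, approximate 95% interval -2.08 to -0.64, edgeR adjusted p = 0.0601). Ifi211 had 48.9, 123 and 77.6 CPM on imatinib, against 187, 163 and 227 CPM on vehicle (log2 fold change -1.21, approximate 95% interval -1.86 to -0.57, edgeR adjusted p = 0.0559). These intervals assume a normal distribution and are narrower than the edgeR test implies. In both, imatinib 1 was the lowest library and imatinib 2 the highest of the treated ones, and the groups did not overlap. Without imatinib 2 both were called lower, at -1.81 and edgeR adjusted p = 0.00845 for Ifi204 and -1.63 and edgeR adjusted p = 0.0069 for Ifi211. Of the 6 fits that left out a library, Ifi204 was called in 1, with edgeR adjusted p of up to 0.152. Ifi211 was called in 2 of the 6, with edgeR adjusted p of up to 0.148.

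Ifi203 and Ifi209 had the smallest differences. Ifi203 had 183, 180 and 168 CPM on imatinib, against 230, 254 and 255 CPM on vehicle, which left it at 71.9% of the vehicle mean (log2 fold change -0.48, standard error 0.10, edgeR adjusted p = 0.0183). Ifi209 had 145, 195 and 152 CPM on imatinib, against 233, 227 and 252 CPM on vehicle, or 69.1% of the vehicle mean (log2 fold change -0.53, standard error 0.13, edgeR adjusted p = 0.032). The gap between the groups was smaller than for Ifi213, but no library of one group lay within the other.

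**Figure D1:**
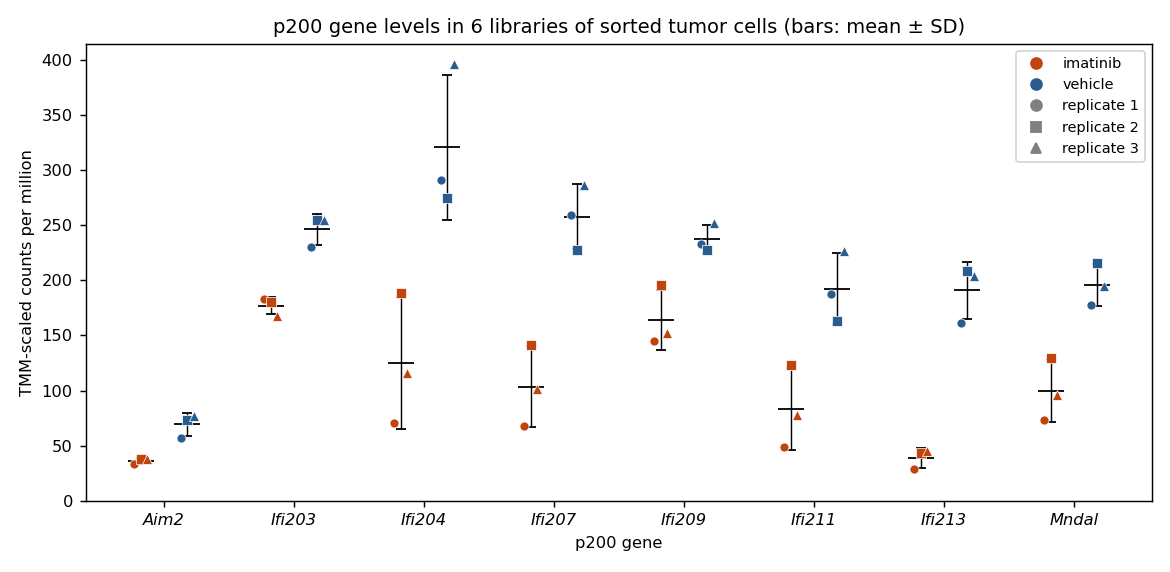
Levels in TMM-scaled CPM (vertical axis, from 0) of the 8 p200 genes in 3 imatinib libraries (left of each pair) and 3 vehicle libraries (right), with the mean and SD of each group. In all 8 genes the imatinib points lie below the vehicle points, with the widest gap relative to the level for Ifi213 (38.9 against 191 CPM on average), and the treated points of Ifi204, Ifi207, Ifi211 and Mndal are lowest in replicate 1 and highest in replicate 2.

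The calls for the 6 genes rest on different numbers of libraries. With a library left out, edgeR called 6 of the 8 genes lower without imatinib 1 (5.85% of all genes), 8 without imatinib 2 (10.2%) and 2 without imatinib 3 (3.36%). It called 4 without vehicle 1 (3.61%), 2 without vehicle 2 (2.94%) and 2 without vehicle 3 (2.92%). Ifi213 and Aim2 were the 2 that stayed called in every one of these fits. Ifi203 lost its call without imatinib 3, vehicle 2 or vehicle 3, with adjusted p between 0.0671 and 0.0744, and so did Mndal, with 0.0594 to 0.0739. Ifi207 lost it without imatinib 3 or any vehicle library, with 0.0507 to 0.0698, and Ifi209 in every fit but the one without imatinib 2, with 0.0687 to 0.111. No log2 fold change of the 8 genes turned positive when a library was left out.

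Levels between genes can be compared only per length, for which CPM was divided by the length of the union of the GENCODE M21 exons in kb; the sources used here do not give the gene models behind the counts. On imatinib the order by mean level per kb was Ifi211 (46.5 CPM per kb), Ifi209 (46.3), Ifi204 (35.1), Ifi207 (30.3), Mndal (27.5), Ifi203 (26.4), Aim2 (10.4) and Ifi213 (5.69). The first 6 each overlapped their neighbour in the order, while Ifi203, Aim2 and Ifi213 were apart from each other. On vehicle it was Ifi211 (108 CPM per kb), Ifi204 (90.04), Ifi207 (75.4), Ifi209 (66.9), Mndal (54.0), Ifi203 (36.7), Ifi213 (27.9) and Aim2 (19.8). There the first 4 overlapped their neighbours and the rest did not. Aim2 and Ifi213 thus exchanged places: Ifi213 had 4.203 to 6.59 CPM per kb on imatinib, under the 9.45 to 10.9 of Aim2, and 23.6 to 30.5 CPM per kb on vehicle, above the 16.4 to 22.0 of Aim2.

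The 8 genes together had 649, 1040 and 794 CPM on imatinib, against 1598, 1645 and 1892 CPM on vehicle. The mean of 828 ± 197 CPM on imatinib was 48.4% of the 1711 ± 158 CPM on vehicle (SD, n = 3 each; log2 ratio -1.05). Imatinib 2, the highest treated library, reached 1040 CPM, and no vehicle library was under 1598 CPM. 

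The share of each gene in the sum is given as a description, since the shares of a library add up to the whole and cannot move independently. Ifi213 supplied 4.43%, 4.14% and 5.67% of the family's counts on imatinib, against 10.1%, 12.7% and 10.8% on vehicle. Ifi207 supplied 10.4%, 13.6% and 12.8% on imatinib, against 16.2%, 13.8% and 15.2% on vehicle, also without overlap though by a small margin. In the other direction, Ifi203 supplied 28.1%, 17.3% and 21.2% on imatinib, against 14.4%, 15.5% and 13.5% on vehicle, and Ifi209 22.3%, 18.8% and 19.1% on imatinib, against 14.6%, 13.8% and 13.3% on vehicle. The shares of Aim2, Ifi204, Ifi211 and Mndal overlapped between the groups.

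The summed level is set beside macrophage and T cell genes of the same libraries. C1qa, C1qb and C1qc together were at 2973, 6604 and 5051 CPM on imatinib, against 7997, 6271 and 8195 CPM on vehicle, in the same order as the p200 sum among the imatinib libraries but not among the vehicle libraries, where vehicle 2 had the least C1q and vehicle 1 the lowest p200 sum. Cd3d, Cd3e and Cd3g, subunits of the T cell receptor complex, were at 909, 649 and 843 CPM on imatinib, against 510, 636 and 355 CPM on vehicle. The imatinib library with the least Cd3, imatinib 2, had the most p200 and C1q counts. The part of macrophage RNA in the p200 differences was not tested.

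**Figure D2:**
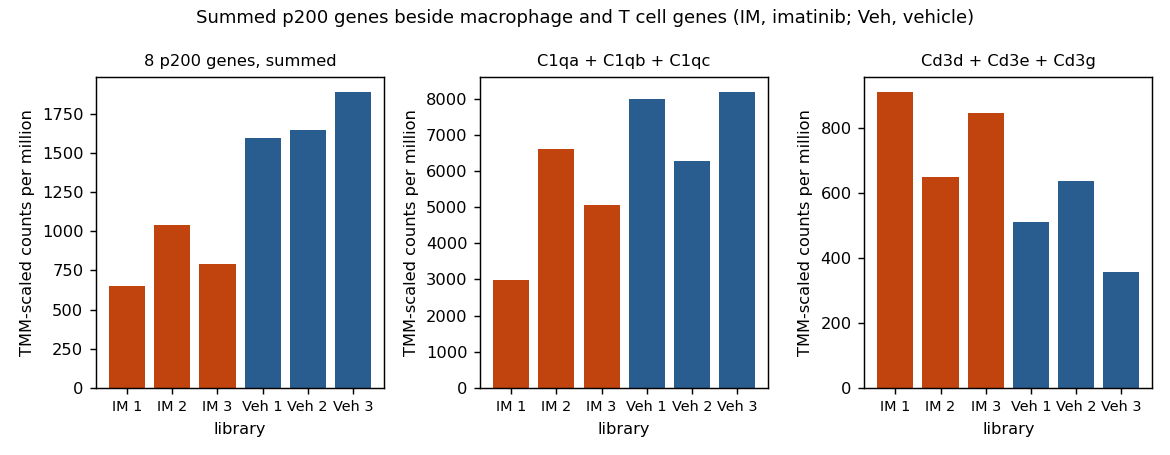
Summed levels in TMM-scaled CPM (vertical axes, from 0) of the 8 p200 genes, of 3 C1q genes and of 3 Cd3 genes in each imatinib (IM) and vehicle (Veh) library. The p200 sum is at most 1040 on imatinib and at least 1598 on vehicle, the C1q sums of the groups overlap (2973 to 6604 against 6271 to 8195), and the Cd3 sums are higher on imatinib (649 to 909 against 355 to 636).

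Set against C1q counts, the groups did not overlap for some p200 genes and overlapped for others. The sum was 21.8, 15.7 and 15.7 per 100 C1q counts on imatinib, against 19.98, 26.2 and 23.1 on vehicle, so that the groups overlapped. Ifi213 had 0.97, 0.65 and 0.89 counts per 100 C1q counts on imatinib, against 2.02, 3.32 and 2.48 on vehicle. Ifi204 had 2.29 to 2.86 on imatinib, against 3.64 to 4.83 on vehicle. Ifi207 (2.01 to 2.28 against 3.24 to 3.63) and Ifi211 (1.54 to 1.86 against 2.34 to 2.77) were likewise without overlap, while Aim2, Ifi203, Ifi209 and Mndal overlapped. The share of all genes without overlap per C1q count was not determined. In an edgeR fit scaled to C1q counts only Ifi213 was called lower (-1.64, adjusted p = 0.00153), against 0.638% of all genes, and Ifi203 (0.28, adjusted p = 0.57) and Ifi209 (0.17, adjusted p = 0.733) had the opposite sign.

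Set against Cd3 counts, every p200 gene was lower on imatinib without overlap. Cd3 counts were themselves higher on imatinib, and the share of all genes that separate in this way was not determined. The sum was 71.4, 160 and 94.1 per 100 Cd3 counts on imatinib, against 313, 259 and 533 on vehicle. The edgeR fit scaled to Cd3 counts called all 8 lower, where it called 28.1% of all genes lower. These scalings moved the median log2 fold change of all genes to 0.76 for C1q and -0.72 for Cd3. Relative to that median the members' median was -1.24 under C1q scaling and -1.07 under Cd3 scaling, against -1.11 under TMM scaling, and all 8 genes lay below it in each. Rescaling shifts all genes by nearly the same amount, so these values restate the TMM comparison and are not separate results.

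**Figure D3:**
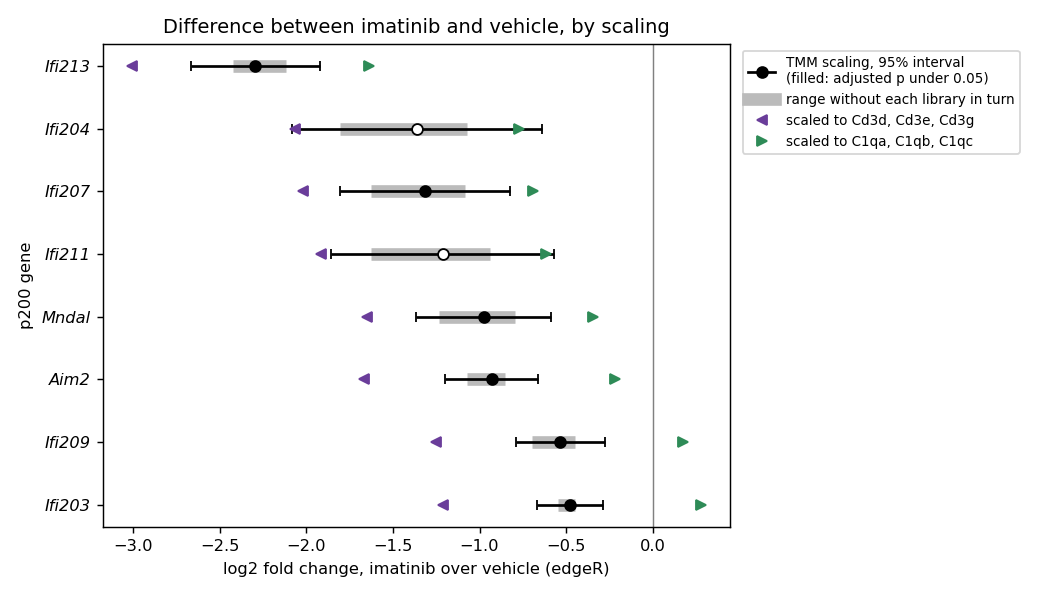
Log2 fold change of imatinib over vehicle (horizontal axis) of the 8 p200 genes by edgeR with TMM scaling (circles with approximate 95% intervals, filled where the adjusted p was under 0.05), the range when each library was left out (grey), and fits scaled to Cd3 or C1q counts (triangles). The intervals assume a normal distribution and are narrower than the edgeR test implies. All grey ranges lie below 0; scaling to C1q puts Ifi203 at 0.28 and Ifi209 at 0.17, and Ifi213 is lowest under each scaling.

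Members of the family are alike in sequence, so reads may have been shared between them. The share of 50-base stretches of a gene's GENCODE M21 transcripts found in no other transcript was 99.4% for Aim2, 92.7% for Ifi207, 87.8% for Ifi203, 84.4% for Ifi213, 80.4% for Mndal, 80.0% for Ifi204 and 66.3% for Ifi209. For Ifi211 it was 27.2%, since 44.7% of its stretches also occur in Ifi205, 30.1% in Ifi204 and 17.1% in Mndal. Ifi209 shares 33.4% of its stretches with Ifi214, and Ifi213 shares 13.6% with Ifi208. The sources used here do not give how the counting treated reads that match several genes, so the level of Ifi211 above all is uncertain, and the difference in Ifi211 is not independent of those in Ifi204 and Ifi205. Aim2, which shares no stretch with a family gene, is free of this limit within the family.

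**Figure D4:**
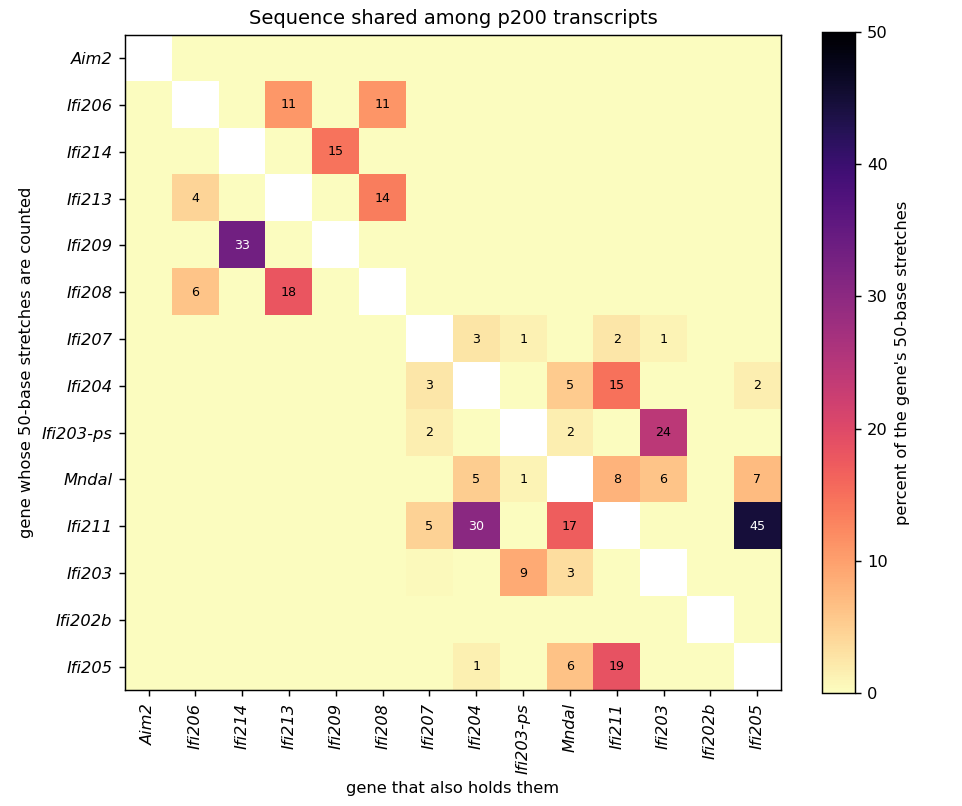
Percent of the 50-base stretches in the transcripts of 1 p200 gene (rows, in chromosomal order) that also occur in transcripts of another (columns), with values of 1 or more printed. Ifi211 shares 45% with Ifi205 and 30% with Ifi204, Ifi209 shares 33% with Ifi214, and Aim2 shares none.

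The other p200 genes of the table differed in the same direction. Of 6 with a row, 5 were tested and 4 fell, against 8.42% of all genes. Ifi206 had 58.4, 75.8 and 79.0 CPM on imatinib, against 158, 133 and 166 CPM on vehicle (log2 fold change -1.10, edgeR adjusted p = 0.00571). Ifi208 was at 50.2 ± 5.41 CPM on imatinib and 90.4 ± 8.18 CPM on vehicle (SD, n = 3 each; -0.85, edgeR adjusted p = 0.00691). The pseudogene Ifi203-ps was at 4.71 ± 0.999 CPM on imatinib and 11.4 ± 1.79 CPM on vehicle (SD, n = 3 each; -1.28, edgeR adjusted p = 0.0138), and Ifi214 at 20.8 ± 4.09 CPM on imatinib and 33.5 ± 2.29 CPM on vehicle (SD, n = 3 each; -0.69, edgeR adjusted p = 0.0263). Ifi205 had 27.1, 61.9 and 41.7 CPM on imatinib, against 83.3, 72.3 and 105 CPM on vehicle (-0.998, edgeR adjusted p = 0.0688), with imatinib 1 lowest and imatinib 2 highest as for Ifi204 and Ifi211. Ifi202b, whose protein lacks the pyrin domain and opposes Aim2, had 0 counts in all 6 libraries, which allows up to 0.141 CPM in the shallowest of them. Without vehicle 2 only Ifi206 and Ifi208 were called, and without imatinib 2 all 5 were; each other fit that left out a library called 3.

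In a list of genes related to the AIM2 inflammasome and its products, 6 of 15 genes tested fell, against 8.42% of all genes. None rose, against 6.15% of all genes (3 of the list at an unadjusted p under 0.05 and 1 by DESeq2). The other 9 did not pass the test, and the median log2 fold change was -0.44. Il1a, the cytokine interleukin-1α, had 5.11, 4.35 and 3.34 CPM on imatinib, against 13.8, 13.4 and 26.2 CPM on vehicle (-2.06, edgeR adjusted p = 0.00823). Gsdmd, the pore-forming protein that caspases cleave in pyroptosis, was at 33.8, 55.3 and 37.4 CPM on imatinib, against 75.3, 73.3 and 83.8 CPM on vehicle (-0.88, edgeR adjusted p = 0.0195). Casp4, which encodes mouse caspase-11, and Gsdme, a related pore-forming protein, also fell (-0.85 and -0.97, edgeR adjusted p = 0.0198 and 0.0479). The core partners of Aim2 did not pass: Pycard was at 28.7, 33.7 and 32.1 CPM on imatinib, against 30.2, 27.3 and 27.8 CPM on vehicle, with overlapping groups, and Casp1 was at 34.9, 44.1 and 38.5 CPM on imatinib, against 49.3, 51.5 and 54.9 CPM on vehicle (-0.41, edgeR adjusted p = 0.057). Pycard and Casp1 were named after their values were seen. The list's count was 1 without imatinib 3 or vehicle 2, 2 without vehicle 3 and 3 without vehicle 1. Il1a was called in 6 of 6 fits that left out a library, Gsdmd and Casp4 in 2 and Gsdme in 0.

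In cytosolic DNA sensing through STING, 5 of 20 genes fell and 0 rose, against 8.42% and 6.15% of all genes. The median was -0.24 (no gene rose at an unadjusted p under 0.05 or by DESeq2). Cgas, the enzyme that makes the STING ligand from DNA, had 11.4, 13.1 and 9.80 CPM on imatinib, against 24.2, 23.4 and 34.7 CPM on vehicle (-1.26, edgeR adjusted p = 0.00838). Zbp1, a sensor of Z-form nucleic acids, had 54.4, 123 and 79.9 CPM on imatinib, against 220, 209 and 226 CPM on vehicle (-1.35, edgeR adjusted p = 0.021). Tbk1, the kinase downstream of STING, and Zdhhc1 fell as well (-0.76 and -1.08, edgeR adjusted p = 0.0136 and 0.0192), as did Lrrfip1, outside the naming rule (-0.41, and 0.33 under C1q scaling). Sting1 itself, named after its values were seen, was at 121, 168 and 147 CPM on imatinib, against 153, 143 and 137 CPM on vehicle, and its groups overlapped (0.01, edgeR adjusted p = 0.966). The list's count was 1 without vehicle 2 and 2 without imatinib 3, vehicle 1 or vehicle 3, and Cgas was called in each of these fits.

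Enzymes that degrade or edit nucleic acids, which limit the DNA and RNA that such sensors meet, had 4 of 15 genes lower and 1 higher. This compares with 8.42% and 6.15% of all genes, and the median was -0.33. Adar, which edits double-stranded RNA, was at 103 CPM on imatinib and 197 CPM on vehicle (-0.94, edgeR adjusted p = 0.00869). Pnpt1 (-0.84), Isg20 (-0.82) and Apobec1 (-0.66) were also lower, though Apobec1 had the opposite sign with C1q scaling (0.01). The gene of the list that rose was Rnaseh2c, a subunit of ribonuclease H2, outside the rule for naming genes (0.51, edgeR adjusted p = 0.0291, and -0.23 under Cd3 scaling). Trex1 had 0 counts in every library, and whether the transcript was absent or its reads were not counted cannot be told from these counts. The count of lower genes was 2 without imatinib 3 and 6 without imatinib 2.

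A list of interferon receptors, their kinases, the transcription factors downstream and the feedback inhibitors Socs1 and Usp18 had 4 of 16 lower and 1 higher. Over all genes the shares were 8.42% and 6.15%, and the list's median was -0.31. The receptor genes Ifnar1, Ifnar2, Ifngr1 and Ifngr2, outside the naming rule, did not pass the test. Stat2, which binds the response element in a complex with Irf9, had 86.2, 148 and 119 CPM on imatinib, against 303, 283 and 319 CPM on vehicle (-1.36, edgeR adjusted p = 0.00671). Usp18, an interferon-induced brake on the type I receptor, had 13.97, 37.8 and 18.7 CPM on imatinib, against 78.7, 63.3 and 72.8 CPM on vehicle (-1.61, edgeR adjusted p = 0.035). Socs1 (-0.66) and Irf9 (-0.57) fell as well, with the opposite sign under C1q scaling (0.04 and 0.12), and Jak1, outside the naming rule, rose (0.41, edgeR adjusted p = 0.0344, and -0.33 under Cd3 scaling). Stat2 was called in 6 of 6 fits that left out a library, Irf9 in 2, Usp18 in 1 and Socs1 in 1. The count of lower genes was 1 without imatinib 3 or any vehicle library and 7 without imatinib 2.

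Among cell cycle and transcription partners described for AIM2 or human IFI16, 2 of 19 fell, near the 8.42% of all genes. In this list 3 rose, against 6.15%, and the median was 0.06, near that of all genes. Cdkn1a, the inhibitor p21, fell (-1.37, edgeR adjusted p = 0.0143), as did Mdm2 (-0.62, edgeR adjusted p = 0.0166), Mdm2 with the opposite sign under C1q scaling (0.08). Npm1 (0.56, edgeR adjusted p = 0.00997) and Rack1 (0.51, edgeR adjusted p = 0.0169) rose, with the opposite sign under Cd3 scaling (-0.17 and -0.22), and so did Ppp2r1a, outside the naming rule (0.47, and -0.28 under Cd3 scaling). Without imatinib 3 or vehicle 3 the list had 0 genes lower and 1 higher. With C1q scaling 0 genes of these 5 pathway lists or of the other p200 genes were called lower.

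Genes around the cluster were compared as well. Within the cluster and up to 1 Mb before Aim2, 12 genes outside the family were tested, of which 1 rose (Tagln2, with the opposite sign under Cd3 scaling, -0.21), 3 fell (Pigm, Slamf9 and Igsf9) and 8 did not pass, with a median log2 fold change of -0.41. Of all genes tested, 6.15% rose and 8.42% fell. The calls of Pigm and Igsf9 held in each fit that left out a library, while those of Tagln2 and Slamf9 were lost in some, with adjusted p of up to 0.0636 and 0.109. The nearest tested gene wholly before Aim2 was the processed pseudogene Gm2710, whose annotated start lies at -682 kb from that of Aim2. Gm2710 was at 4.36 CPM on imatinib and 3.06 CPM on vehicle (0.51, edgeR adjusted p = 0.281, with the opposite sign under Cd3 scaling, -0.25). Cadm3, which overlaps the Aim2 span, did not pass (-0.30, edgeR adjusted p = 0.834). The pseudogene Gm18752, within the cluster, was at 1.66 CPM on imatinib and 3.51 CPM on vehicle and did not pass either (-1.08, edgeR adjusted p = 0.0651). Both are outside the naming rule.

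**Figure D5:**
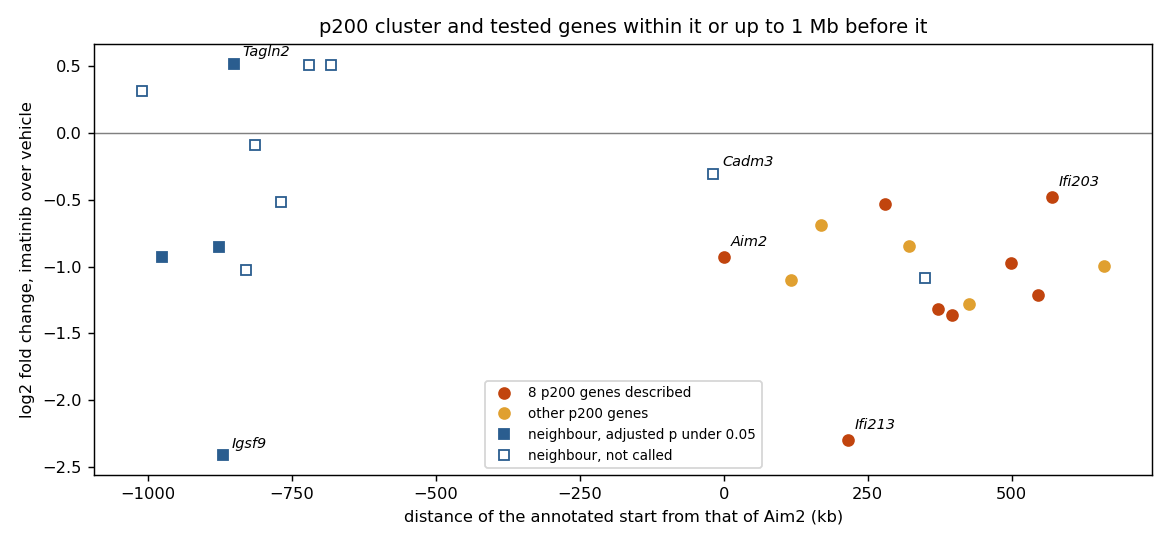
Log2 fold change of imatinib over vehicle (vertical axis) of the p200 genes and of 12 tested genes outside the family, against the distance of the annotated start from that of Aim2 in kb (horizontal axis). All p200 genes lie below 0, with Ifi213 lowest at -2.30, while the neighbours lie on both sides of 0, with Tagln2 highest at 0.52 and Igsf9 lowest at -2.41.

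The genes outside the family whose log2 CPM over the 6 libraries ran closest to the mean of the 8 p200 genes were Arrb2 (Pearson r = 0.999), Lacc1 (0.999), Tmem181a (0.999), Pnpt1 (0.998) and Sass6 (0.997). These correlations are a description over 6 libraries that fall into their 2 groups. Arrb2, β-arrestin 2, was at 274 CPM on imatinib and 525 CPM on vehicle (-0.94, edgeR adjusted p = 0.0114), and Lacc1 was at 61.1 CPM on imatinib and 154 CPM on vehicle (-1.33, edgeR adjusted p = 0.00756). The mean log2 CPM that they followed was 6.10, 6.82 and 6.49 in imatinib 1, 2 and 3 and 7.52, 7.60 and 7.77 in vehicle 1, 2 and 3.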

How the data were processed

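The files used were counts: the authors aligned the reads of 3 imatinib and 3 vehicle libraries to GRCm38 with STAR, counted them per gene with featureCounts and deposited 1 table. Sources used here do not give its gene models, strand setting or handling of multiply matching reads. Of 57332 rows, those with no gene name (3016, holding no more than 0.158% of any library) were dropped, 1013 exact repeats entered once, and 78 symbols with several rows had them added up. The table has 3 more columns that could be tied to no sample, and these stayed unread. No libraries were duplicates (the lowest chi-square per gene of any pair was 37.1).

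Tests were robust quasi-likelihood fits of edgeR 4.0.16 in R 4.3.3, after its default low-count filter and TMM scaling. The members and gene lists were chosen with earlier results of these data known. Genes named are the 8 members, the other p200 genes with counts, up to 4 called genes of each pathway list with the largest change, the nearest tested gene outside the family before the cluster (the other side and 1 gene of the pathway lists are not reported here), the 5 most similar genes (log2 CPM with a pseudocount of 1) and the first gene of each of 11 marker lists; other names are marked. The fits were repeated with size factors of DESeq2 (RLE), with library totals, unfiltered, with at least 50 counts, with scaling to Cd3 or C1q counts, with the replicate number as a block, without each library in turn, with all rows kept, with members summed, by limma 3.58.1 voom with quality weights, by DESeq2 1.42.0 and at other thresholds. Promoter windows came from RefSeq and transcripts from GENCODE M21. Protein sequences were not used here. Tables and plots used Python 3.11.15, pandas 2.3.3 and matplotlib 3.10.9. Intervals were taken from the standard error under a normal distribution, which is too narrow for 3 libraries a group. They cover the spread between libraries.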

Additional observations from a re-analysis of the deposited data

How the results depend on the processing

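With 3 libraries a group, few calls are firm. Whole-table calls were 1399 lower and 1022 higher. They were 437 and 173 with the replicate number as a block, 106 and 2777 with C1q scaling and 4678 and 135 with Cd3 scaling. They were 540 and 304 with a log2 fold change of 1 required as well, and 272 and 67 at an adjusted p of 0.01. Deviations of imatinib and vehicle libraries of the same number from their group means had r of -0.21, -0.06 and -0.06. With 3 libraries a group, such values cannot show whether these libraries share more than a number. DESeq2 called 1634 higher. Leaving out a library gave 503 to 1780 lower and 182 to 1171 higher. The share of higher calls was 42.2%, against 96.3% with C1q scaling, 2.80% with Cd3 scaling, 28.4% with the block and 32.2% with library totals; the cause was not tested.

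Of the 8 p200 genes, 6 were called lower. It was 1 with C1q scaling, 2 with the fold threshold, 2 at an adjusted p of 0.01 and 4 with the block. It was 5 without a filter on low counts (1593 of 27847 genes called lower), and 2 to 8 when a library was left out. RLE factors (1389 of 16621 genes called lower) and keeping all rows (1408 of 16729) gave 6. Library totals (1608 of 16621) and the stricter filter (1471 of 12591) gave 8. The log2 ratio of the summed counts was -1.05, and -1.76 with Cd3 scaling and -0.38 with C1q scaling, which were added after seeing the data. Among called members, list genes and neighbours, the sign turned with C1q scaling for Ifi203 (0.28), Ifi209 (0.17), Apobec1 (0.0094), Socs1 (0.044), Irf9 (0.12), Mdm2 (0.079), Kdr (0.08), Lrrfip1 (0.33) and Casp8 (0.22), and with Cd3 scaling for Npm1 (-0.17), Rack1 (-0.22), Trac (-0.13), Mrc1 (-0.05), Maf (-0.11), Jak1 (-0.33), Rnaseh2c (-0.23), Ppp2r1a (-0.28) and Tagln2 (-0.21). Fits for genes outside the 8 and for lists were added after seeing the data.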
